A study of Mus musculus with 15 samples.

Results

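Adipogenic transcription factors are the DNA-binding proteins that turn a precursor into a fat cell and keep its lipid-handling genes on. The 8 described here are Pparg, Rxra, Cebpa, Cebpb, Cebpd, Klf15, Ebf1 and Zfp423. They were taken by symbol from a table of 24030 gene symbols measured in brown adipose tissue of mice, and all 8 were found and passed the filter on low counts. Brown adipose tissue (BAT) oxidises stored lipid and releases the energy as heat. The 15 libraries of bulk RNA came from mice with a BAT-specific deletion of DJ-1 (encoded by Park7), here KO, and from flox mice without the deletion, here WT. They form 4 groups: KO at 29 °C (n = 3), WT at 29 °C (n = 4), KO at room temperature (n = 4) and WT at room temperature (n = 4), each housed so for 8 weeks. The sources used here do not state the Cre driver, strain, sex, age or any pooling of animals. Replicates carry numbers but no mouse of origin, so the p-values reflect only the spread among the libraries, which may be technical.

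On GRCm38 (GENCODE M21), Pparg lies at chr6:115360951-115490399, Rxra at chr2:27676440-27762957, Cebpa at chr7:35119293-35121928, Cebpb at chr2:167688915-167690418, Cebpd at chr16:15887286-15891031, Klf15 at chr6:90462576-90475238, Ebf1 at chr11:44617317-45008091 and Zfp423, alone on the minus strand, at chr8:87661810-87959595. Counts are per gene, so isoforms of Pparg cannot be told apart.

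As background, adipogenesis runs as a relay. C/EBPβ and C/EBPδ (Cebpb, Cebpd) are induced early by hormones and cyclic AMP and switch on PPARγ (Pparg) and C/EBPα (Cebpa), which then sustain each other and most genes of the mature fat cell. PPARγ binds DNA as a pair with the retinoid X receptor RXRα (Rxra). EBF1 (Ebf1) and ZFP423 (Zfp423) act in committed precursors. ZFP423 also restrains heat-producing genes in white fat cells, and KLF15 (Klf15) is a glucocorticoid-responsive factor of nutrient metabolism that acts late in differentiation.

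Levels are given as CPM, read counts relative to library size after TMM scaling, as mean ± SD over a group. Differences are log2 fold changes ± SE from 1 edgeR fit over all 4 groups, and a difference passed when its adjusted p was under 0.05. Totals were 23977448 to 26789246 estimated counts in 14 libraries, and KO at 29 °C replicate 1 was the deepest at 38800967. The deletion was visible in Park7, at 31.7 ± 5.46 CPM in KO and 118 ± 11.0 CPM in WT at 29 °C, and at 28.2 ± 4.03 CPM in KO and 110 ± 1.66 CPM in WT at room temperature. The libraries carried the listed brown fat markers, Ucp1 among them, with none of the 8 markers at 0 in any group. Skeletal muscle markers summed to 636 CPM and 1971 CPM in KO at 29 °C replicates 2 and 3 and to 1600 CPM in WT at 29 °C replicate 2, against 32.9 to 54.9 CPM in the other 12 libraries. In bulk tissue, fewer cells of a type and less RNA per cell cannot be told apart.

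Per length of transcript, the C/EBP genes Cebpa and Cebpb were the most abundant of the 8 in each group and Pparg came next. In CPM per kb, KO at 29 °C had 239 ± 53.8 for Cebpa, 230 ± 22.6 for Cebpb and 90.3 ± 23.99 for Pparg. WT at 29 °C had 109 ± 7.97, 86.6 ± 16.5 and 47.9 ± 13.9, in the same order. KO at room temperature had 256 ± 9.79, 151 ± 39.4 and 79.0 ± 6.68, and WT at room temperature had 314 ± 43.4, 248.8 ± 46.8 and 80.5 ± 5.19. The ranges of Cebpa and Cebpb overlapped in 3 groups and were apart in KO at room temperature. Those of Cebpb and Pparg did not overlap in any group, although in WT at 29 °C they came within 68.4 and 68.3 CPM per kb. The other 5 genes lay far below. In WT at room temperature they ran, in CPM per kb, from Klf15 (22.3 ± 2.06) through Rxra (14.8 ± 0.487), Ebf1 (8.15 ± 0.264) and Zfp423 (1.83 ± 0.279) to Cebpd (1.32 ± 0.114), with no overlap between neighbours. In WT at 29 °C Ebf1, Cebpd and Klf15 stood at 3.89 ± 0.726, 2.91 ± 0.845 and 2.74 ± 0.518 CPM per kb, and the range of Cebpd overlapped both others. In KO at 29 °C, Klf15 spread over 3.27 to 6.16 CPM per kb and overlapped Ebf1 at 4.48 to 5.28.

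**Figure D1:**
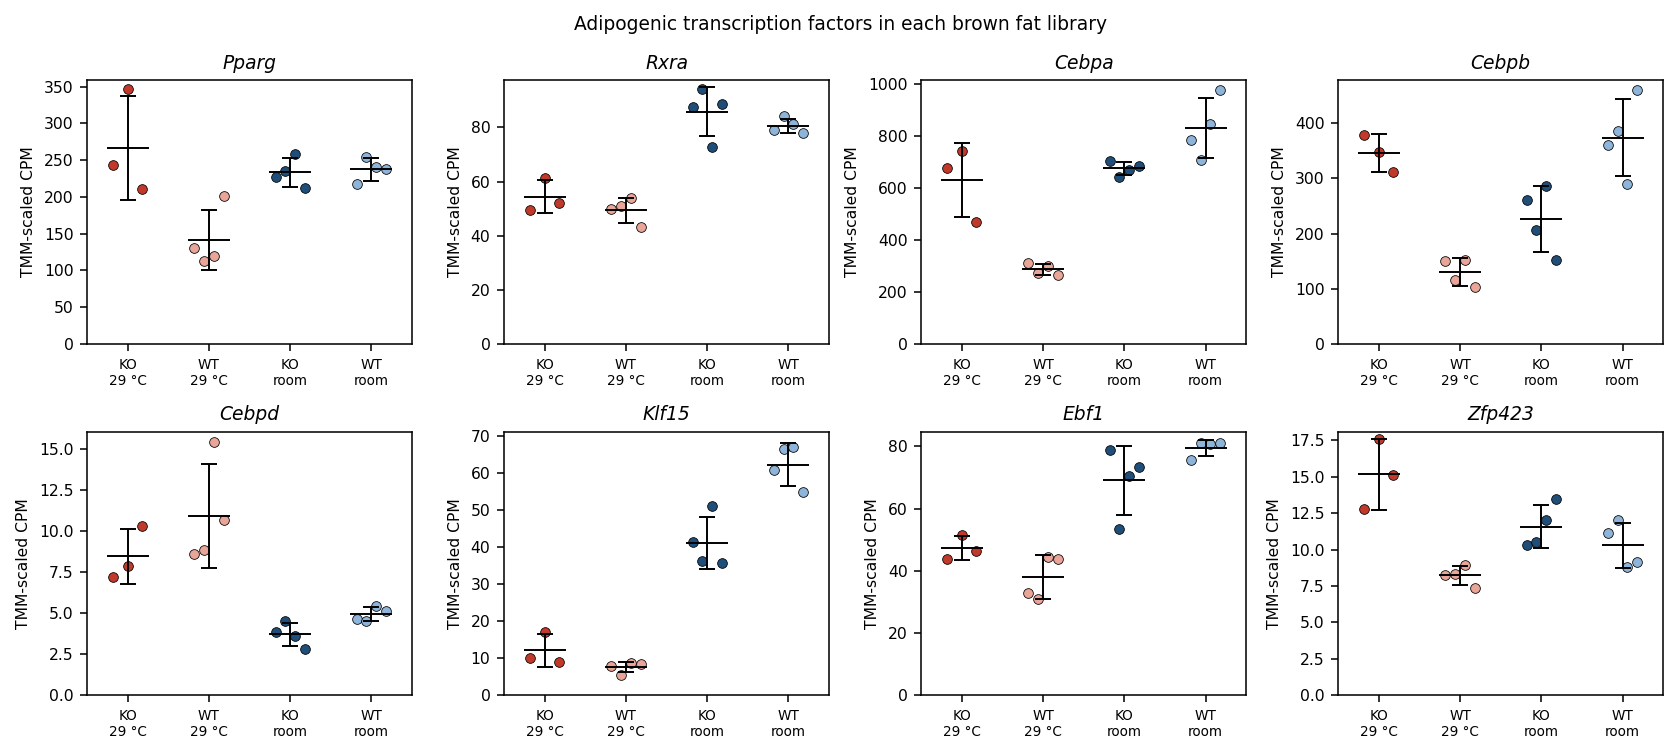
Levels of the 8 genes in TMM-scaled CPM (vertical axes, from 0) in each library, with KO and WT at 29 °C on the left and KO and WT at room temperature (marked room) on the right of each panel. Points are libraries, and the bars give the mean ± SD of the group (n = 3, 4, 4 and 4). Cebpa is lowest in WT at 29 °C (266 to 311 CPM), and Klf15 stands at 9.12 to 17.2 CPM in KO and 5.55 to 8.78 CPM in WT at 29 °C.

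The comparison of KO with WT at 29 °C asked how loss of DJ-1 changed brown fat with little need for heat. Of the 8 genes, 5 rose and none fell, against 44.7% of all 15083 genes tested called in either direction, 24.7% higher and 20.0% lower. The 5 were Cebpb (2.66-fold), Cebpa (2.19-fold), Pparg (1.89-fold), Zfp423 (1.84-fold) and Klf15 (1.58-fold). Rxra, Cebpd and Ebf1 did not pass. The median log2 fold change of the 8 was 0.77, and that of all genes tested 0.04. The libraries of KO and WT did not overlap for 5 of the 8, the same 5, against 43.1% of all genes.

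Cebpa, which sustains the mature fat-cell programme, measured 677, 741 and 470 CPM in the KO libraries at 29 °C and 311, 273, 298 and 266 CPM in those of WT. Each KO library lay above each WT library, and KO replicate 3 was the lowest of its group (log2 fold change 1.13 ± 0.14, adjusted p = 9.41e-06). Cebpb, the early inducer, measured 379, 349 and 312 CPM in KO and 150, 116, 153 and 103 CPM in WT. Again no KO library lay among those of WT (1.41 ± 0.20, adjusted p = 6.06e-05). For both genes the exact two-sided permutation test gave p = 0.0286, the smallest that 35 arrangements allow.

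Pparg, the lipid-sensing receptor that directs fat storage, measured 243, 346 and 211 CPM in KO and 131, 113, 120 and 202 CPM in WT at 29 °C. WT replicate 4 stood close below the lowest KO library. The log2 fold change was 0.92 ± 0.18 (adjusted p = 0.000899), and the exact two-sided permutation test gave p = 0.0571. Zfp423 measured 12.8, 17.6 and 15.1 CPM in KO and 8.29, 8.30, 8.92 and 7.39 CPM in WT, with all KO libraries above all WT libraries (0.88 ± 0.14, adjusted p = 0.000124). Klf15 measured 10.1, 17.2 and 9.12 CPM in KO and 7.91, 5.55, 8.78 and 8.35 CPM in WT. Its groups were separated only narrowly, and KO replicate 2 was the high library (0.66 ± 0.21, adjusted p = 0.0168). Without that library the Klf15 difference was 0.33 and no longer passed (adjusted p = 0.156). Nor did it pass in a fit of only the 7 libraries compared (0.62, adjusted p = 0.0663).

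Rxra, the partner of PPARγ, measured 49.6, 61.4 and 52.2 CPM in KO and 49.7, 51.0, 53.9 and 43.1 CPM in WT at 29 °C, and the groups overlapped. Its log2 difference was 0.14, with a 95% interval from -0.08 to 0.36 (adjusted p = 0.297). Ebf1 ran from 43.7 to 51.5 CPM in KO and from 30.9 to 44.5 CPM in WT, with a difference of 0.31 ± 0.14 (adjusted p = 0.0759). Leaving out KO at room temperature replicate 2, or WT at 29 °C replicate 3 or 4, brought Ebf1 past the threshold, at 0.31, 0.40 and 0.39. Without WT at 29 °C replicate 2 it was at 0.22 (adjusted p = 0.210), and without the 3 libraries with muscle transcripts at 0.0424 (adjusted p = 0.903). Cebpd ran from 7.18 to 10.3 CPM in KO and from 8.60 to 15.4 CPM in WT, and its difference of -0.37 ± 0.20 did not pass (adjusted p = 0.150). The interval of the Cebpd difference, -0.79 to 0.06, did not reach the rise of Cebpa or Cebpb, whose intervals began at 0.85 and 0.98. The Cebpd value depended on which libraries were kept: it was -0.15 (adjusted p = 0.511) without WT at 29 °C replicate 3, the highest of its group, and -0.76 (adjusted p = 0.0784) without the 3 libraries with muscle transcripts.

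At 29 °C, KO replicates 2 and 3 and WT replicate 2 held muscle transcripts, and leaving out those 3 kept a single KO library, assumed to vary like the other groups. Cebpa and Cebpb still passed, at 1.14 (adjusted p = 0.000308) and 1.42 (adjusted p = 0.00678). Pparg and Zfp423 measured 0.61 (adjusted p = 0.0545) and 0.56 (adjusted p = 0.0573), and Klf15 0.20 (adjusted p = 0.478). Among libraries with muscle transcripts, Klf15 was highest of its group in KO replicate 2, lowest in KO replicate 3 and lowest in WT replicate 2. The part of muscle in these differences was not tested further. Markers of the fat cells themselves differed at 29 °C, though not all one way. Of all genes, 24.7% were called higher and 20.0% lower in KO. The 8 brown adipocyte markers summed to 8962 to 11477 CPM in KO and 2930 to 4051 CPM in WT. Most of that gap was Ucp1, at 7233 ± 1240 CPM in KO and 1019 ± 203 CPM in WT. Of the 8, 5 were called higher (Ucp1, Dio2, Elovl3, Ppargc1a and Adrb3), Cox8b was called lower (-0.52 ± 0.15, adjusted p = 0.00932), and Cidea (0.13) and Cox7a1 (-0.20) did not pass. The 7 general adipocyte markers summed to 12730 to 14864 CPM in KO and 9402 to 11526 CPM in WT. Of these, Lpl, Plin1 and Adipoq were called higher, Cfd was called lower (-0.54 ± 0.18, adjusted p = 0.0248), and Fabp4 (0.08), Lep (0.34) and Retn (-0.57) did not pass. Lpl, with 4235 CPM in KO and 1564 CPM in WT on average, held most of that gap. Among markers of other cells, all 12 endothelial markers were called lower in KO. Their summed level was 774 to 1059 CPM in KO and 1744 to 2406 CPM in WT. B cells also use Ebf1, and 4 of 8 B-cell markers were called higher, with sums of 6.25 to 18.8 CPM in KO and 3.23 to 7.35 CPM in WT. Precursor and fibroblast markers, which mark cells known to express Zfp423 and Ebf1, had 3 of 12 called higher and 3 lower. Those counts were close to the shares of all genes. The precursor and fibroblast markers summed to 1808 to 2314 CPM in KO and 1365 to 2166 CPM in WT. Mural-cell markers had 2 of 10 higher and 4 lower, with sums of 580 to 707 CPM in KO and 644 to 886 CPM in WT. Of 10 macrophage markers 5 were called higher and 1 lower, with sums of 425 to 632 CPM in KO and 247 to 385 CPM in WT. All 7 T-cell markers tested were called higher, with sums of 19.6 to 33.9 CPM in KO and 6.29 to 8.04 CPM in WT. No defining marker of these lists was at 0 in every library of a group. The part of these cells in the differences was not tested.

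**Figure D2:**
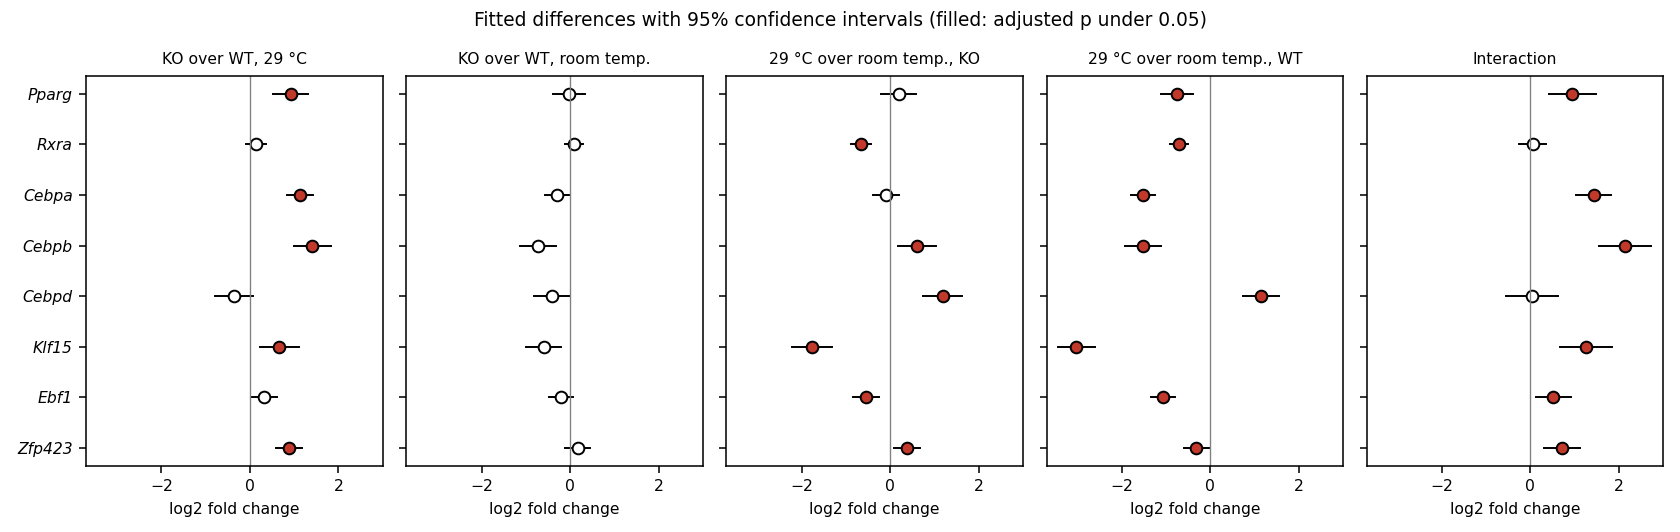
Fitted log2 fold changes (horizontal axes) of the 8 genes in the 4 pairwise comparisons and the interaction, with 95% confidence intervals as lines and filled points where the adjusted p was under 0.05. In KO over WT at 29 °C 5 points are filled, all above 0, and in KO over WT at room temperature no point is filled. Klf15 has the value farthest below 0, -3.03 for 29 °C over room temperature in WT.

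At room temperature, where the tissue works against mild cold, none of the 8 genes passed in KO against WT. Only 36 of 15083 genes did so, 0.239% of all, with 0.0530% higher and 0.186% lower. By unadjusted p, 3 of the 8 were under 0.05 (Cebpb, Klf15 and Cebpa), as were 1678 of all genes. Of the 8, DESeq2 called Cebpb alone. The median log2 fold change of the 8 was -0.25, and that of all genes 0.01.

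The same 3 genes had no overlap between the genotypes, against 8.22% of all genes. Cebpb measured 261, 206, 286 and 153 CPM in KO and 360, 387, 290 and 460 CPM in WT at room temperature, so that the highest KO library lay just under the lowest of WT. The log2 difference was -0.72 ± 0.19 (adjusted p = 0.147 by edgeR and 0.0160 by DESeq2). Klf15 measured 41.2, 36.2, 51.1 and 35.8 CPM in KO and 60.7, 66.5, 66.9 and 54.7 CPM in WT. Each KO library was below each WT library, and the difference was -0.60 ± 0.18 (adjusted p = 0.223). Cebpa measured 704, 643, 668 and 683 CPM in KO and 784, 707, 846 and 977 CPM in WT, with KO replicate 1 and WT replicate 2 almost level (-0.30 ± 0.13, adjusted p = 0.401). For each of the 3 the exact two-sided permutation test gave p = 0.0286, the smallest that 70 arrangements allow. KO replicate 4 had the lowest Cebpb and the lowest Klf15 of its group. An earlier analysis of these data had set KO replicates 2 and 4 apart. Without both, the differences were -0.45 for Cebpb and -0.43 for Klf15, with adjusted p = 0.857 and 1. With them, the 95% interval for Pparg at room temperature was -0.39 to 0.34, and those for Rxra and Zfp423 were -0.11 to 0.29 and -0.11 to 0.45.

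In WT at 29 °C against room temperature, 7 of the 8 genes fell and Cebpd rose, while 68.8% of all genes were called, 36.0% higher and 32.8% lower. Klf15 fell most, to 12.3% of its room-temperature mean, and Cebpa and Cebpb fell to 34.6% and 34.8%. Ebf1 stood at 47.7%, Pparg at 59.5%, Rxra at 61.3% and Zfp423 at 80.0%, and Cebpd rose 2.21-fold. The median of the 8 was -0.91, and that of all genes 0.06. WT at 29 °C is also the group against which KO at 29 °C was set, so this comparison shares those 4 libraries with the KO effect at 29 °C.

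Marker lists were followed with housing in WT as well, where 36.0% of all genes were called higher and 32.8% lower. Of the 8 brown adipocyte markers 7 were called lower and none higher at 29 °C, with sums of 2930 to 4051 CPM at 29 °C and 11559 to 13902 CPM at room temperature. The general adipocyte markers had 2 higher and 5 lower of 7, with sums of 9402 to 11526 CPM at 29 °C and 17130 to 19655 CPM at room temperature. All 12 endothelial markers were called higher, with sums of 1744 to 2406 CPM at 29 °C and 720 to 905 CPM at room temperature. All 10 macrophage markers were also called higher, summing to 247 to 385 CPM at 29 °C and 103 to 142 CPM at room temperature. Precursor and fibroblast markers had 7 of 12 higher and none lower, with sums of 1365 to 2166 CPM at 29 °C and 1015 to 1298 CPM at room temperature. Mural-cell markers had 4 of 10 higher and 3 lower, close to the shares of all genes. B-cell markers had 3 of 8 higher, also close to that share, and none lower. T-cell markers had 5 of 7 higher and none lower. Muscle markers had 8 of 12 higher, but they summed to 1600 CPM in WT at 29 °C replicate 2 alone. The other replicates of that group had 32.9 to 54.9 CPM, and WT at room temperature had 37.4 to 49.2 CPM. The part of these cells in the housing difference was not tested.

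In WT, Klf15 had a log2 fold change of -3.03 ± 0.20 (adjusted p = 6.06e-09) between 29 °C and room temperature, with libraries of 5.55 to 8.78 CPM at 29 °C against 54.7 to 66.9 CPM at room temperature. Cebpa fell by 1.53 (SE 0.13, adjusted p = 3.87e-08) and Cebpb by 1.52 (SE 0.19, adjusted p = 4.57e-06), both on the log2 scale. Ebf1 fell by 1.07 (adjusted p = 2.14e-06), Pparg by 0.75 (adjusted p = 0.00116) and Rxra by 0.71 (adjusted p = 7.51e-06). For 7 of the 8, Zfp423 excepted, no library of WT at 29 °C lay among those of WT at room temperature, against 62.6% of all genes. Zfp423 had the smallest fall, 0.32 (adjusted p = 0.0413). Leaving out any of 5 WT libraries (29 °C replicates 1, 2 and 4, room temperature replicates 1 and 2) ended that call, with values from -0.32 to -0.24.

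In WT, Cebpd ran against the other 7, while in KO Cebpb and Zfp423 rose as well. In WT, Cebpd measured 8.60, 8.83, 15.4 and 10.7 CPM at 29 °C and 4.63, 4.51, 5.42 and 5.15 CPM at room temperature (1.14 ± 0.19, adjusted p = 5.86e-05). In KO it measured 7.18, 7.85 and 10.3 CPM at 29 °C and 3.88, 4.51, 3.63 and 2.84 CPM at room temperature (1.18 ± 0.21, adjusted p = 0.000244). In both genotypes the warm libraries all lay above the room-temperature libraries. Cebpd is also the only one of the 8 whose deposited counts carried decimals, in all 15 libraries. RSEM gives decimals where it divides reads between features. Its exons overlap those of Spidr, a DNA-repair gene on the opposite strand. The decimals of Cebpd and Spidr completed each other to a whole number in all 15 libraries. In KO at 29 °C replicate 1 the counts were 301.58 and 304.42. Some reads were thus divided between these genes. Spidr measured 6.68 ± 0.836 CPM in KO and 4.84 ± 0.731 CPM in WT at 29 °C. At room temperature it measured 7.22 ± 1.29 CPM in KO and 7.14 ± 0.748 CPM in WT. All Cebpd values given here, its rise at 29 °C included, depend on that division, which was not tested. Exons of Cebpb overlap the opposite-strand gene Tmem189, which measured 18.6 ± 2.61 CPM in KO and 13.9 ± 2.10 CPM in WT at 29 °C, far below Cebpb. Cebpa overlaps the antisense gene Gm45091. The sources used here do not say whether counting used strand. Reads were divided across strands for Cebpd and Spidr. Cebpa, Cebpb and Tmem189 had whole counts in all 15 libraries, so no such division showed in them. Whether reads of the Cebpa and Cebpb pairs went to the right gene was not tested and stays uncertain.

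In KO, 29 °C against room temperature gave a divided picture, with 3 of the 8 higher and 3 lower, against 46.0% of all genes called, 24.3% higher and 21.7% lower. Klf15, Rxra and Ebf1 fell, and Cebpd, Cebpb and Zfp423 rose. Klf15 fell to 29.5% of its room-temperature mean (-1.76 ± 0.21, adjusted p = 1.43e-05), Rxra to 63.5% (-0.66 ± 0.11, adjusted p = 0.000122) and Ebf1 to 68.5% (-0.55 ± 0.14, adjusted p = 0.00473). Cebpb rose 1.53-fold (0.61 ± 0.20, adjusted p = 0.0208). Cebpa measured -0.10 ± 0.14 and Pparg 0.19 ± 0.18, and neither passed (adjusted p = 0.576 and 0.413), with 95% intervals of -0.39 to 0.19 and -0.20 to 0.58. The median of the 8 was 0.05, and that of all genes 0.04. The libraries did not overlap for 5 of the 8, against 48.1% of all genes.

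In KO, 24.3% of all genes were called higher and 21.7% lower at 29 °C. The brown adipocyte markers had 1 of 8 called lower, Elovl3, and none higher. Their sums overlapped, with 8962 to 11477 CPM at 29 °C and 7626 to 13963 CPM at room temperature. The general adipocyte markers had 1 higher and 2 lower of 7, with sums of 12730 to 14864 CPM at 29 °C and 13944 to 21018 CPM at room temperature. Precursor and fibroblast markers had 9 of 12 higher, with sums of 1808 to 2314 CPM at 29 °C and 988 to 1202 CPM at room temperature. Macrophage markers had 9 of 10 higher, with sums of 425 to 632 CPM at 29 °C and 93.9 to 198 CPM at room temperature. Endothelial markers had 6 of 12 higher, mural-cell markers 1 of 10, B-cell markers 7 of 8, T-cell markers 7 of 7 and muscle markers 8 of 12, and none of these lists had a member called lower. The muscle markers summed to 51.7, 636 and 1971 CPM in the KO libraries at 29 °C and to 33.5 to 42.8 CPM at room temperature. Whether these cells had a part in the differences was not tested.

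The calls for Cebpb and Zfp423 in KO rested on single libraries. For Cebpb the adjusted p was 0.0534 without KO at room temperature replicate 2 and 0.0751 without KO at 29 °C replicate 1, and the difference was 0.34 (adjusted p = 0.187) without KO at room temperature replicates 2 and 4. Zfp423 rose by 0.38 ± 0.14 (adjusted p = 0.0341). It did not pass without KO at room temperature replicate 1, 2 or 3 or KO at 29 °C replicate 2 or 3, with values from 0.26 to 0.38. Without the 3 libraries with muscle transcripts, Cebpb was at 0.66 (adjusted p = 0.137) and Zfp423 at 0.06 (adjusted p = 0.854).

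Whether the KO effect differed between the temperatures was tested by the interaction, the KO effect at 29 °C minus that at room temperature. It was positive and passed for 6 of the 8, and for none was it negative and called, against 28.3% of all genes called, 16.0% higher and 12.3% lower. Cebpb had the largest value at 2.14 ± 0.28 (adjusted p = 8.41e-05), with KO above WT at 29 °C and a mean of 60.6% of WT at room temperature. Cebpa (1.43 ± 0.19, adjusted p = 7.22e-05), Klf15 (1.26 ± 0.28, adjusted p = 0.00363), Pparg (0.94 ± 0.25, adjusted p = 0.0113) and Zfp423 (0.71 ± 0.19, adjusted p = 0.0126) followed. Ebf1 was at the threshold (0.52 ± 0.19, adjusted p = 0.0496), and leaving out any of 12 single libraries ended its call, with values from 0.41 to 0.57. Of the single libraries left out, only WT at 29 °C replicate 3 or 4 or KO at room temperature replicate 1 let it pass. Across all 24 alternatives Ebf1 kept its call in 6, among them the replicate block (0.58, adjusted p = 0.0349). RLE scaling (adjusted p = 0.0540) and thinned counts (adjusted p = 0.0513) were among those that ended it. For Rxra the interaction was 0.05, with an interval from -0.25 to 0.35, and for Cebpd it was 0.04, with an interval from -0.55 to 0.63. Without the 3 libraries with muscle transcripts, Cebpb (2.15), Cebpa (1.45) and Klf15 (0.81) passed and Pparg (0.65, adjusted p = 0.103), Zfp423 (0.40, adjusted p = 0.280) and Ebf1 (0.26, adjusted p = 0.491) did not. Without KO at room temperature replicates 2 and 4, Pparg was at 0.88 (adjusted p = 0.0531) and Ebf1 at 0.41 (adjusted p = 0.142).

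The 3 C/EBP genes held different shares of their summed level per length in the 4 groups. Cebpd made up 0.497 ± 0.185% of that sum in KO and 1.47 ± 0.373% in WT at 29 °C, and 0.244 ± 0.0482% in KO and 0.235 ± 0.0326% in WT at room temperature. At 29 °C the highest KO library (0.710%) lay below the lowest WT library (1.04%), and at room temperature the genotypes overlapped. The sum in the denominator is almost all Cebpa and Cebpb, both of which rose in KO at 29 °C, and that rise lowers the share. The difference of Cebpd itself was -0.37, with an interval from -0.79 to 0.06, and did not pass. Whether a fall of Cebpd had a part in the lower share was not tested. Cebpb made up 49.2 ± 4.18% in KO and 43.4 ± 3.05% in WT at 29 °C, with overlap of the ranges, and 36.5 ± 6.26% in KO and 44.0 ± 4.78% in WT at room temperature, again with overlap.

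**Figure D3:**
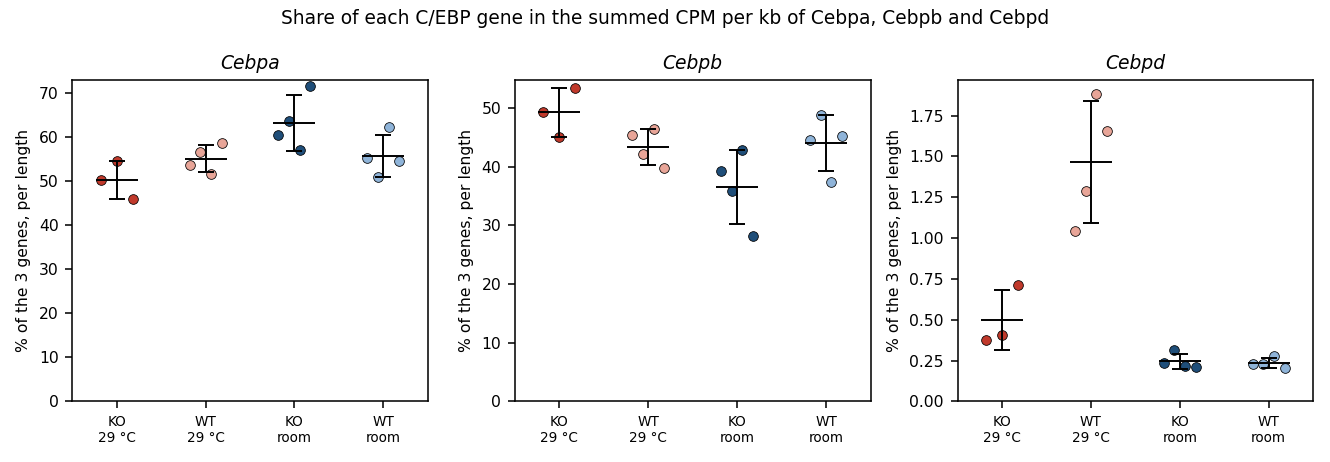
Share of Cebpa, Cebpb and Cebpd in their summed CPM per kb (vertical axes, percent, from 0) in each library of KO and WT at 29 °C (left) and KO and WT at room temperature (right). Points are libraries and bars the mean ± SD. The Cebpd share runs from 0.375% to 0.710% in KO at 29 °C and from 1.04% to 1.88% in WT at 29 °C.

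Start-site windows are shown for 4 of the genes called in KO against WT at 29 °C, Cebpa, Cebpb, Klf15 and Pparg, so that their motifs can be compared. Each runs 250 bases before to 50 after a start, from RefSeq on GRCm38.p6. Of the 8 genes, 7 were in that table, and Cebpd was not. Capitals mark matches, on either strand, to CCAAT, to TTNNGNAA (a loose form of the C/EBP motif), to TGACG (a half-site of the cyclic AMP response element), to GGGCGG (GC box), to CACGTG (the E-box bound by clock activators), to AGAACA (a glucocorticoid half-site), to the direct repeat bound by PPARγ with RXR and to TATAAA. The windows of Cebpa (chr7:35119043-35119342, plus strand), Cebpb (chr2:167688665-167688964, plus strand) and Klf15 (chr6:90462326-90462625, plus strand) are their single listed starts, and that of Pparg (chr6:115421816-115422115, plus strand) is the most downstream of 3.
Cebpa: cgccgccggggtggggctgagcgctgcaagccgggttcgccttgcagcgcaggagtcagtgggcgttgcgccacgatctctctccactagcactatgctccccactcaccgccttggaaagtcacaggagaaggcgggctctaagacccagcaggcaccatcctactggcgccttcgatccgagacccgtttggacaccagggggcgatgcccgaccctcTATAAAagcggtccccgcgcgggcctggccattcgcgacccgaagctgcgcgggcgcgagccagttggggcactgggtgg
Cebpb: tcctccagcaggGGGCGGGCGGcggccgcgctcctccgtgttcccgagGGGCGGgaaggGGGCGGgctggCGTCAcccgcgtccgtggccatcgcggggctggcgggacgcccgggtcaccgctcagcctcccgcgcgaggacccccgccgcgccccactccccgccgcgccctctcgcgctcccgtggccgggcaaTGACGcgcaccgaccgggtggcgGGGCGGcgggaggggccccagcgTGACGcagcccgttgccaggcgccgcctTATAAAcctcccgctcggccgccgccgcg
Klf15: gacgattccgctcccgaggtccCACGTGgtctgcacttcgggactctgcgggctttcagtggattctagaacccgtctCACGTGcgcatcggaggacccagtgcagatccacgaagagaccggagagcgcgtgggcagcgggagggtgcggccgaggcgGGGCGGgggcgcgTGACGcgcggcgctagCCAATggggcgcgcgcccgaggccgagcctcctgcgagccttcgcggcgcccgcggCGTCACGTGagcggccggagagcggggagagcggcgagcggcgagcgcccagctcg
Pparg: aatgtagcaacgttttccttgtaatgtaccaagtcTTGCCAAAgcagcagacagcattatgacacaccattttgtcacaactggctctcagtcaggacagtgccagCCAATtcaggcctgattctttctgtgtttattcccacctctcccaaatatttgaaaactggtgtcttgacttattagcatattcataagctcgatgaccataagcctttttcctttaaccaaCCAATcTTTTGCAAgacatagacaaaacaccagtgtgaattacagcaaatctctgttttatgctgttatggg

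The 4 windows differed in what they held. The Klf15 window had 1 match each to CCAAT and GGGCGG, 3 matches to CACGTG, a motif present in 7.15% of all 32817 windows, and 2 to TGACG (20.8% of windows), one of which overlaps the last E-box. The Cebpb window had 3 matches to TGACG, 5 to GGGCGG (35.6% of windows), 2 of which overlap each other, and 1 to TATAAA (13.6% of windows). That TATAAA lies after the start, from base 22. The Cebpa window had 1 TATAAA, 30 bases before the start, and no other match. The Pparg window, the least rich in G and C at 40.3% against 67.3% for Cebpa and 80.7% for Cebpb, had 2 matches to CCAAT (37.4% of windows) and 2 to the loose C/EBP motif (40.7% of windows). The other 2 Pparg windows, not printed, differed from it. The most upstream had 80.3% G and C, 1 match to GGGCGG and no other. The middle one had 62.7% G and C, 1 match to CCAAT, 2 to GGGCGG and 1 to TATAAA. Neither held the loose C/EBP motif. AGAACA (19.0% of windows) and the PPARγ repeat (0.0396% of windows) had no match in the 4 windows. A match is a description of letters and no evidence of binding.

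Relatives of the 8 genes gave a wider view of the families. Of all genes, 24.7% rose and 20.0% fell in KO against WT at 29 °C. With housing in WT, 36.0% were higher at 29 °C and 32.8% lower. Of 6 other PPAR, RXR and LXR receptors, 3 rose in KO against WT at 29 °C: Ppara, the fatty-acid oxidation receptor (0.71 ± 0.26, adjusted p = 0.0386), Ppard (0.33 ± 0.12) and the sterol receptor Nr1h3 (0.35 ± 0.08). In WT, 5 of the 6 fell at 29 °C against room temperature, among them Nr1h3 (-0.55) and Ppard (-0.74). Ppara measured 418 ± 47.8 CPM in KO and 256 ± 31.6 CPM in WT at 29 °C, and 230 ± 98.7 CPM in KO and 423 ± 64.8 CPM in WT at room temperature. The last difference did not pass (-0.88 ± 0.24, adjusted p = 0.190). Of the other C/EBP genes 3 were tested. Cebpg (0.31) and Cebpz (0.51) rose and Ddit3, the stress-induced inhibitor of other C/EBP proteins, fell (-0.56 ± 0.15, adjusted p = 0.00672) in KO at 29 °C. In WT at 29 °C against room temperature, Ddit3 was higher (1.06 ± 0.14) and Cebpg (-0.46) and Cebpz (-0.40) were lower.

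Of the 3 other EBF genes and Zfp521, 1 rose and 2 fell in KO against WT at 29 °C. Ebf2, which marks brown fat precursors and opens brown fat genes, rose. Ebf4 fell (-1.51 ± 0.37, adjusted p = 0.00359), and Ebf3 did not pass (0.25, adjusted p = 0.320). Ebf2 measured 36.8 ± 2.15 CPM in KO and 17.7 ± 2.80 CPM in WT at 29 °C (1.06 ± 0.13, adjusted p = 1.15e-05) and fell in WT at 29 °C against room temperature (-1.74 ± 0.12). Zfp521, the paralogue of Zfp423 that opposes adipogenesis, was lower in KO than in WT at 29 °C (2.83 ± 0.775 against 6.51 ± 1.06 CPM, -1.20 ± 0.20, adjusted p = 0.000169), and in WT it was higher at 29 °C than at room temperature (1.97 ± 0.19). Of 12 other Krüppel-like factors tested, 1 rose and 7 fell in KO at 29 °C, among them Klf2 (-1.31 ± 0.22), an endothelial factor that represses Pparg, and Klf6 (-0.96 ± 0.17). In WT, 8 of the 12 were higher at 29 °C and 2 lower, including Klf9 (-1.92 ± 0.30), a glucocorticoid-responsive factor. The shares of all genes were 24.7% higher and 20.0% lower in the first comparison and 36.0% and 32.8% in the second. At room temperature Klf2 was the only relative called in KO against WT (-1.26 ± 0.20, adjusted p = 0.0216).

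The genes that PPARγ drives in fat cells were described from a list of 26. In KO against WT at 29 °C, 24.7% of all genes rose and 20.0% fell. Of the 26, 16 rose and 1 fell, with a median of 0.58 against 0.04 over all genes. The 1 that fell was Angptl4, an inhibitor of lipoprotein lipase (-0.49 ± 0.13). The strongest by p were the droplet coat protein Plin1 (1.97 ± 0.13), hormone-sensitive lipase Lipe (1.32 ± 0.13), the triglyceride synthase Dgat2 (1.29 ± 0.15) and the droplet protein Cidec (1.27 ± 0.17). In WT at 29 °C against room temperature, 22 fell and 2 rose, against 32.8% lower and 36.0% higher of all genes. The median was -1.36 against 0.06 over all genes. Gpd1, which makes the glycerol backbone of triglyceride, fell by 2.15 on the log2 scale and Plin1 fell by 2.07. In KO, 11 fell and 2 rose, with a median of -0.35, against 21.7% lower and 24.3% higher of all genes. Plin1 had 624 ± 94.3 CPM in KO and 159 ± 29.1 CPM in WT at 29 °C, and 658 ± 49.1 CPM in KO and 666 ± 24.2 CPM in WT at room temperature. Gpd1 had 4182 ± 247 CPM in KO and 2363 ± 229 CPM in WT at 29 °C, and 11207 ± 1801 CPM in KO and 10457 ± 1063 CPM in WT at room temperature. None of the 26 passed in KO against WT at room temperature, where the smallest adjusted p was 0.218, for Angptl4.

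Of 17 PPARγ coregulators, 5 rose and 4 fell in KO at 29 °C, shares close to the 24.7% higher and 20.0% lower of all genes, so the count says nothing particular to them. They included the nuclear-receptor coactivators Ppargc1a (1.95 ± 0.43) and Ncoa1 (0.43 ± 0.10), which rose, and Ncoa3 (-0.73 ± 0.17), which fell. Of 17 anti-adipogenic regulators tested, 3 rose and 10 fell in KO at 29 °C, with a median of -0.48, and Tgfb1, a growth factor that blocks differentiation, was one that fell (-0.85 ± 0.20). In WT, 9 were higher and 4 lower at 29 °C, against 36.0% and 32.8% of all genes. Id3 (2.48 ± 0.17) and Hes1 (1.79 ± 0.21) were among the higher. The 18 other pro-adipogenic regulators had 5 higher and 3 lower in KO at 29 °C, again close to the shares of all genes. Of 15 glucocorticoid-responsive genes none rose and 5 fell in KO at 29 °C, against 24.7% and 20.0% of all genes. Among the 5 was Angptl4, which is also in the list of PPARγ targets. Klf15, itself responsive to glucocorticoids, rose, but without KO at 29 °C replicate 2 it did not pass (0.33, adjusted p = 0.156). Klf9, also outside the list, had 32.7 ± 5.17 CPM in KO and 17.9 ± 10.5 CPM in WT at 29 °C. In WT at 29 °C against room temperature, 9 rose and none fell, while 36.0% of all genes rose and 32.8% fell. Tsc22d3 (1.34 ± 0.21) was among the 9, and Klf15 fell. In KO the same comparison had 10 higher and none lower, against 24.3% and 21.7% of all genes. Tsc22d3 was again among the higher (1.46 ± 0.22).

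**Figure D4:**
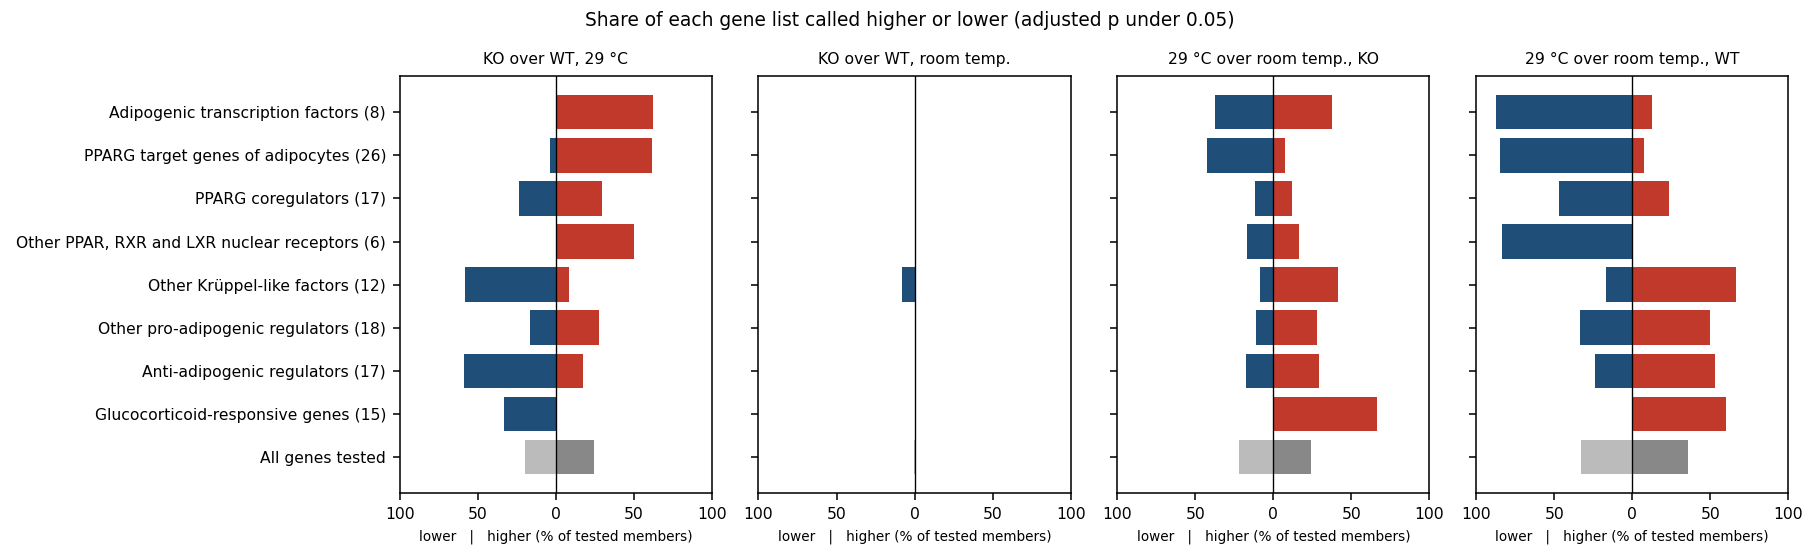
Percent of the tested members of 8 gene lists, and of all genes tested, called higher (to the right of 0) or lower (to the left of 0) in the 4 pairwise comparisons. The number of tested members is in brackets. In KO over WT at 29 °C 5 of 8 adipogenic factors and 16 of 26 PPARγ targets extend to the right, and in 29 °C over room temperature in WT 7 of 8 and 22 of 26 extend to the left.

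The genes closest in pattern to Pparg were sought among 9518 genes averaging 5 CPM or more, by the root mean square difference in log2 CPM over the 15 libraries after centring each gene on its own mean. They were Mfap1b (0.15), Ptar1 (0.16), D16Ertd472e (0.17) and Cdkal1 (0.18). Mfap1b belongs to a pair of near-identical genes, so its counts are uncertain. Mfap1b had 27.3 CPM in KO and 14.1 CPM in WT at 29 °C, and 25.1 CPM in KO and 23.4 CPM in WT at room temperature. For Klf15, the gene of the 8 with the widest range of group means (3.04 in log2), the closest were the mitochondrial carrier Sfxn5 (0.29), Megf9 (0.39), Dhdh (0.40) and the sulfite oxidase Suox (0.40). Sfxn5 had 32.5 CPM in KO and 22.9 CPM in WT at 29 °C, and 123 CPM in KO and 134 CPM in WT at room temperature. These are descriptions of likeness in libraries that share depth and housing.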

How the data were processed

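Bulk RNA from mouse brown adipose tissue was measured in 15 libraries (BGIseq500). Per the submitters' processing notes, the tools were STAR 2.7.10a for alignment (build mm10), RSEM 1.2.28 for quantification, and DESeq2, given as 1.3.40. The deposited table holds expected counts estimated by the authors for 24030 symbols, with decimals in 7.26% of entries. These were rounded here to whole numbers. A spreadsheet had turned 24 symbols into dates, which stayed in the fit unnamed.

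Genes passing edgeR's filterByExpr (minimum count 10) were kept, 15083 in all. Libraries were scaled by TMM. The 4 groups were fitted together with the robust quasi-likelihood test of edgeR 4.0.16 (R 4.3.3, 11 residual degrees of freedom), with Benjamini-Hochberg adjustment over all genes tested in each comparison. Log2 CPM used a prior count of 1. The code was tested on simulated data. Lengths per kb are summed exons in GENCODE M21 (GRCm38), and motifs were matched in RefSeq windows. The lowest estimated count of the 8 genes in any library was 70.35, for Cebpd.

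The members and gene lists were chosen with earlier results of these data known. Named are the 8 genes, Park7, up to 4 members of each list with the smallest p, and the 4 genes closest in pattern to Pparg and to the gene with the widest range. Some genes fall outside that rule, added as context or chosen after their values were seen. They are Spidr, Tmem189, Gm45091 and Angptl4, and the brown and general adipocyte markers, all of which were named. Alternatives were RLE scaling, other filters, thinned counts, leaving out libraries, a fit of only the libraries compared, a block on replicate number, and the tools DESeq2 1.42.0 and limma-voom 3.58.1.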

Additional observations from a re-analysis of the deposited data

Results flagged for a closer look

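For 6 of the 8 genes the KO effect differed between 29 °C and room temperature by the interaction test of edgeR (KO effect at 29 °C minus that at room temperature, log2). Of all genes, 28.3% were called in that test. The differences were 2.14 for Cebpb, 1.43 for Cebpa, 1.26 for Klf15, 0.94 for Pparg, 0.71 for Zfp423 and 0.52 for Ebf1, with adjusted p from 7.22e-05 to 0.0496. The Ebf1 call was kept in 6 of 24 alternatives. Without the 3 libraries with muscle transcripts, which left 1 KO library at 29 °C, the differences were 2.15, 1.45, 0.81, 0.65, 0.40 and 0.26, in the same order. Ebf1 in WT at room temperature replicate 1 (75.7 CPM) lay far from the other 3 libraries of its group relative to their range (80.6 to 81.0 CPM). It was the only such library in 24 groups examined, and chance alone gives about 1 in 20.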

How the results depend on the processing

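Across 992 alternative values for single genes, 915 kept direction and side of the threshold, 52 lost the call, 5 gained it and 20 changed sign, all 20 in differences that had not passed. Cebpa, Cebpb, Klf15, Pparg, Rxra, Ebf1 and Cebpd kept their calls in WT at 29 °C against room temperature under all 25 alternatives.

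Counts of called genes moved by more than 1.5 times as follows. Without the 3 libraries with muscle transcripts (planned with their content known), 4229 genes passed in KO against WT at 29 °C (6749 with them), 13 in KO against WT at room temperature (36), and 4130 in KO at 29 °C against room temperature (6940). Of the 8 genes, 2 passed in KO against WT at 29 °C (5 with them) and 3 in the interaction (6). Only 1 KO library at 29 °C is left there. In KO against WT at room temperature DESeq2 called 228 genes, 1 of the 8 among them, and 5 genes passed without KO replicates 2 and 4. Leaving out single libraries gave 5 to 60 there.

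Values that changed sign without the muscle-bearing libraries were Rxra at -0.0526 in KO against WT at 29 °C, Pparg at -0.0214 in KO at 29 °C against room temperature, and Rxra at -0.13 and Cebpd at -0.35 in the interaction. Without KO at room temperature replicates 2 and 4, Pparg was at 0.0333 and Rxra at -0.0084 in KO against WT at room temperature. With no filter the Cebpd interaction was -0.0001. Leaving out single libraries gave ranges across 0 for Pparg in KO against WT at room temperature (-0.0893 to 0.0177), Pparg and Cebpa in KO at 29 °C against room temperature (-0.0431 to 0.33 and -0.24 to 0.0708), and Rxra and Cebpd in the interaction (-0.0695 to 0.11 and -0.13 to 0.25). The cause of these changes was not tested.

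Replicate numbers recur across groups, but same-numbered libraries did not all deviate together (correlations of -0.276 to 0.330 over the pairs). With so few libraries per group, these correlations cannot decide whether same-numbered libraries share more than a number. With the replicate block, 5, 0, 5, 7 and 6 of the 8 genes passed in KO against WT at 29 °C, KO against WT at room temperature, the housing effect in KO, that in WT, and the interaction. Of all genes, 42.0%, 0.166%, 44.4%, 68.1% and 26.8% passed with the block, in the same order. Klf15 was then at 0.63 (adjusted p = 0.0505) and Ebf1 at 0.37 (adjusted p = 0.0471) in KO against WT at 29 °C, and Zfp423 at 0.37 and -0.32 (adjusted p = 0.0629 and 0.0573) in the housing effects of KO and WT. With only the libraries compared, a fit that could not be made for the interaction, Klf15 was at 0.62 (adjusted p = 0.0663).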
